A study of Mus musculus with 12 samples.

Results

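Iron handling genes were followed in the mouse aorta across 4 treatment groups. The set was the 10 genes Slc40a1, Tfrc, Hmox1, Fth1, Ftl1, Slc11a1, Slc11a2, Cp, Steap3 and Cybrd1, and its members were taken as every non-control probe that the array files name for one of these genes. These are 10 of 34796 names on the array, measured by 18 of its 55675 probes, and 15 of the 18 were bright enough to be tested. The list was chosen from earlier results of these data, of which a Slc40a1 level below that of BA+DMSO in the BA+rapamycin group was one, so member values in that contrast are given below with no p-value, and its counts of calls, Slc40a1 among them, support nothing. Whether other values entered the choice is not known, and the tests below are not independent evidence about these genes.

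Cells take up iron mainly as iron bound to transferrin, which the transferrin receptor carries into endosomes. There a reductase turns ferric into ferrous iron and a divalent metal transporter moves it into the cytosol. Iron that is not used is stored in ferritin, a hollow shell built of heavy and light chains, and surplus iron leaves through ferroportin, with a copper oxidase turning it back into the ferric form. Macrophages also recover iron from haem, which haem oxygenase breaks open.

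The mice were male C57BL/6J animals of 11 to 14 weeks, and 10 mm of aorta was taken above the right renal artery on day 3. DMSO mice received the vehicle dimethylsulfoxide. Rapamycin mice received the mTOR inhibitor rapamycin at 2 mg/kg/day in that vehicle. BA+DMSO mice received injected vehicle, and the challenge of this aortic dissection model from osmotic minipumps. These held AngII (angiotensin II, 1 µg/kg/min), a pressor peptide, together with BAPN (β-aminopropionitrile, 150 mg/kg/day), an inhibitor of the enzyme that crosslinks collagen and elastin. BA+rapamycin mice received the same challenge with rapamycin. Each group had 3 arrays, 12 in all. DMSO sample titles start with Pre, a word the study uses for aorta before the challenge. The labels do not say whether an array holds 1 mouse or a pool, so p-values measure only the spread between these samples, which may be technical.

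Levels are given as log2 of the processed spot signal minus the 75th percentile of the same array, so a level of 0 is that percentile, and differences are differences of such levels. The percentile itself, called array brightness below, lay between 221 and 337 intensity units on the DMSO and rapamycin arrays, between 78.1 and 246 in BA+DMSO and between 74.6 and 109 in BA+rapamycin. No spot was saturated. All DMSO arrays and rapamycin replicate 1 lay on 1 slide and the other arrays on a second slide, so slide and challenge are nearly confounded. Of the smooth muscle markers of aorta, 7 of 7 were well above background on every array. With the challenge on vehicle 1 of the 7 was called lower, and under rapamycin 1 was called higher and 2 lower. Of 11 macrophage markers, 9 were called higher with the challenge on vehicle, and 6 higher and 1 lower under rapamycin, and of 4 tested erythroid markers 4 and 3 were called higher. Over all probes, 9.65% were called higher and 10.8% lower on vehicle, and 18.9% and 22.9% under rapamycin. Nothing is read from the smooth muscle counts, which lie near these shares. The summed linear level of the macrophage markers, each relative to the array's 75th percentile, was 118 to 150 in DMSO, 138 to 160 in rapamycin, 231 to 507 on BA+DMSO arrays and 401 to 523 on BA+rapamycin arrays, and without Itgam, which gave 39.9% to 84.1% of the sum on BA+DMSO arrays, it was 30.8 to 53.5, 48.9 to 65.2, 80.7 to 196 and 112 to 118 in the same order. The sum of 9 erythroid markers was 18.2 to 84.3, 80.7 to 187, 115 to 234 and 309 to 350. In whole tissue, more cells of a type and more RNA per cell cannot be told apart.

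Several genes were measured by more than 1 probe, and some of those probes disagreed. The 60-base stretches below are probes of members that lie within the coding part of the transcript, copied from the array files. Those of Cp and Steap3 are the brightest tested probes of their genes, and the others are not. The folds given below for Ftl1 and Hmox1 come from probes at positions 915 and 1290, which are not printed. Each stretch shows which part of its transcript the values of that probe come from. The number after each name is the position in the transcript that the files give, and no base is in capitals because no motif was searched in them.
Ftl1 462: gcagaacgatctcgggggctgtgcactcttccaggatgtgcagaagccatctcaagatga
Hmox1 324: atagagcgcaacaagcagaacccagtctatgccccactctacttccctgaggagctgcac
Tfrc 1228: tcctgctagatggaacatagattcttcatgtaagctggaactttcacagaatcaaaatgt
Slc11a2 253: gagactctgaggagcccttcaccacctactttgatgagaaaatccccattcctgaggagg
Cp 3251: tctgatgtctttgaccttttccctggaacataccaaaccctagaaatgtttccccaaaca
Steap3 1792: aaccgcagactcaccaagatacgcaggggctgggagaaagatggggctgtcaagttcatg

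With the challenge on vehicle (BA+DMSO against DMSO), 4 of the 9 tested members rose and 1 fell. Ftl1, the ferritin light chain, Hmox1, the inducible haem oxygenase, Slc11a1, a metal transporter of the macrophage phagosome, and Cp, the ferroxidase ceruloplasmin, rose 2.40-fold, 3.00-fold, 2.32-fold and 1.74-fold. Fth1, the ferritin heavy chain, fell 1.66-fold. The remaining 4 genes, Slc40a1, Tfrc, Slc11a2 and Steap3, did not pass the test by the probe that stands for the gene, which was its brightest tested probe over the 12 arrays. Calls are limma adjusted p values under 0.05. Over all 27801 probes tested, 20.5% were called in this contrast, 9.65% higher and 10.8% lower. The median difference of the 9 members was 0.51, beside -0.045 over all probes.

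In rapamycin-treated mice the challenge (BA+rapamycin against rapamycin) gave 1 call higher and 3 lower among the 9 tested members, each by its brightest tested probe. Ftl1 rose 2.11-fold, Fth1 fell 1.49-fold and Slc11a2, the divalent metal transporter DMT1, was 1.53-fold lower by its brighter probe, while its other probe was called higher. Slc40a1, the iron exporter ferroportin, was the third gene called lower, and its count rests on the same 3 BA+rapamycin arrays on which it was chosen. Here 41.7% of all probes were called, 18.9% higher and 22.9% lower. The median of the 9 members was 0.06, also with Slc40a1 put at its bound, beside -0.085 over all probes.

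With the slide as a fixed block, limma called 0 of the 9 members in the challenge contrast, with 3 at an unadjusted p under 0.05, and 15 of all 27801 probes. The slide can be estimated there only through the rapamycin arrays, and the differences then were 1.12 for Ftl1 (adjusted p = 0.285), 1.75 for Hmox1 (0.384), 0.74 for Slc11a1 (0.693), 0.47 for Cp (0.627) and -0.83 for Fth1 (0.428). Their direction did not change. No slide and no date in the sample titles held both a DMSO and a BA+DMSO array, so the challenge on vehicle has no value within either. For the challenge under rapamycin, the second slide held rapamycin replicates 2 and 3 and all 3 BA+rapamycin arrays, and within it Ftl1 differed by 1.03, Fth1 by -0.61 and Slc11a2 by -0.64. With the slide as a fixed block limma kept the call of Ftl1 under rapamycin (adjusted p = 0.0098) and lost those of Fth1 (0.0565) and Slc11a2 (0.0908).

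**Figure D1:**
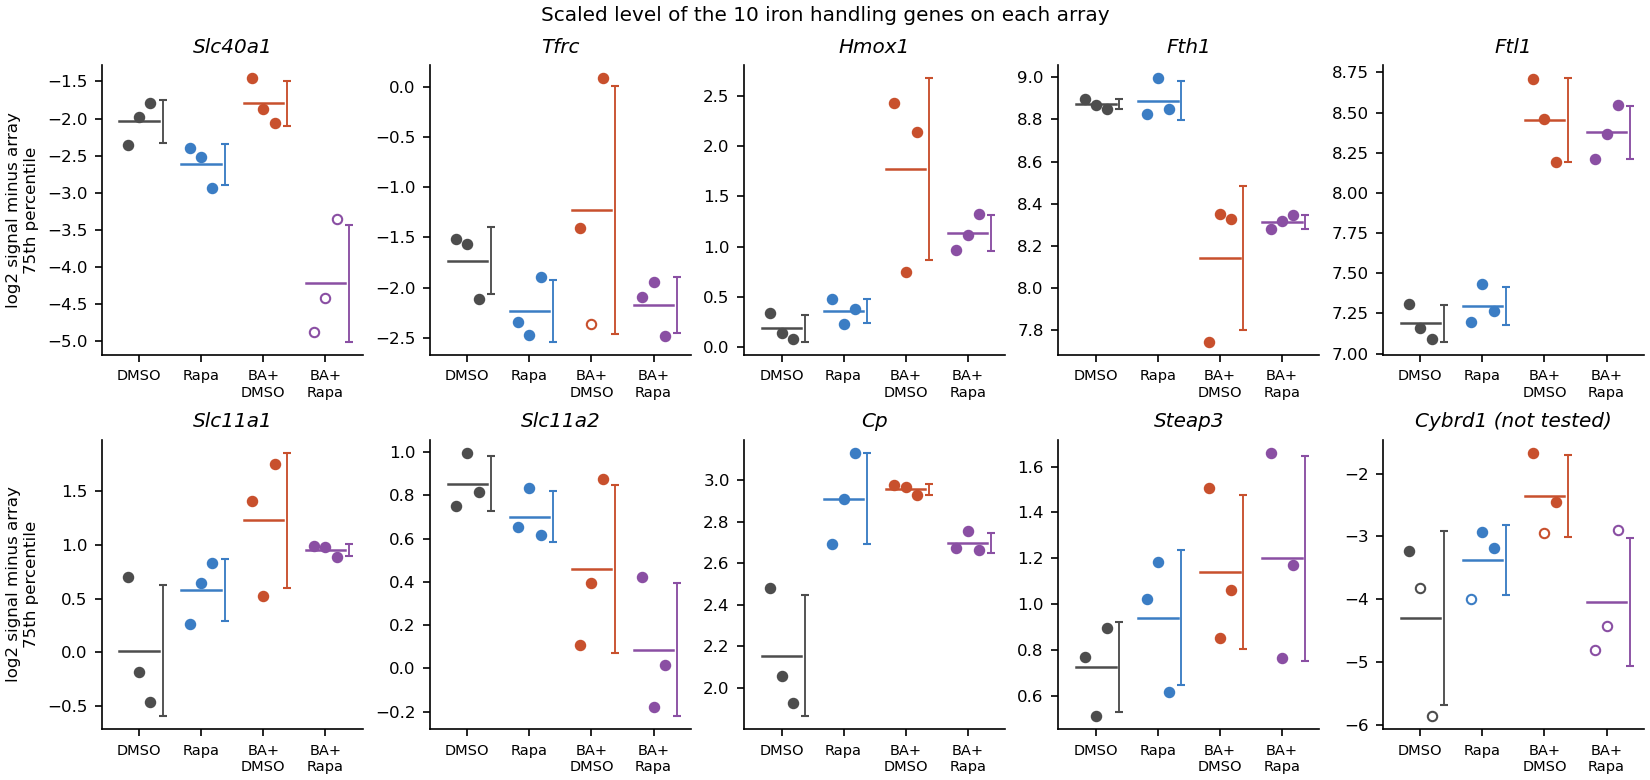
Level of each of the 10 genes on the 12 arrays (log2 signal minus the array's 75th percentile), by the brightest tested probe, or for Cybrd1 the brighter of its 2 untested probes. Points are arrays, open where the probe was not well above background, horizontal lines are group means and vertical bars SD (n = 3). The 2 ferritin genes separate challenged from unchallenged arrays in opposite directions, and Slc40a1 is open on all BA+rapamycin arrays.

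Ftl1 was measured by 2 probes that lie on mm9 chromosome 7 (chr7:52713309-52713368 and chr7:52714014-52714495, minus strand, the second crossing an intron). By the brighter probe the level was 7.31, 7.16 and 7.09 on the DMSO arrays, 7.20, 7.43 and 7.26 in rapamycin, 8.71, 8.46 and 8.19 on BA+DMSO arrays and 8.21, 8.37 and 8.55 on BA+rapamycin arrays. All 6 challenged arrays lay above all 6 unchallenged ones on this scale. Before scaling the signal was 30220 to 44463 intensity units in DMSO, 37773 to 51846 in rapamycin, 27531 to 71981 on BA+DMSO arrays and 24648 to 40380 on BA+rapamycin arrays. These ranges overlapped, and under rapamycin the geometric mean was lower with the challenge, 31843 against 45104. The difference was 1.27 (SE 0.18, limma adjusted p = 0.00122) on vehicle and 1.08 (SE 0.18, limma adjusted p = 0.00162) under rapamycin. The other probe, whose sequence is printed above, gave 1.38 (SE 0.20, limma adjusted p = 0.00139) and 0.75 (SE 0.20, limma adjusted p = 0.0132). Leaving out any 1 of the 12 arrays kept both calls of the brighter probe, with adjusted p values up to 0.00951 and 0.0102. Quantile normalization between arrays gave 0.44 (adjusted p = 0.0602) under rapamycin and a covariate for array brightness 0.89 (adjusted p = 0.0861), and the call on vehicle was kept under both.

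Fth1 was measured by 1 probe (chr19:10059485-10059544, plus strand). Its level was 8.90, 8.87 and 8.85 in DMSO, 8.83, 8.99 and 8.85 in rapamycin, 7.75, 8.35 and 8.33 on BA+DMSO arrays and 8.28, 8.32 and 8.34 on BA+rapamycin arrays. All challenged arrays lay below all unchallenged ones, the reverse of Ftl1 on this scale, and they did so before scaling too, at 23784 to 79087 against 102152 to 155436 intensity units. The difference was -0.73 (SE 0.18, limma adjusted p = 0.0171) on vehicle and -0.58 (SE 0.18, limma adjusted p = 0.0254) under rapamycin. The first call was lost without any 1 of the DMSO arrays (adjusted p = 0.0567, 0.067 and 0.0535 without replicates 1, 2 and 3). The second was lost without any 1 of the 6 arrays of its own groups, with adjusted p values of 0.0565 to 0.0819, while its difference stayed between -0.61 and -0.52. The size depended on the scaling. Taking the 75th percentile only over probes well above background on all 12 arrays gave -0.39 under rapamycin (adjusted p = 0.0926), and quantile normalization gave -1.40 under rapamycin and -1.25 on vehicle, both called. Mouse ferritin genes have near-identical copies elsewhere in the genome, and whether these probes tell them apart is not known here.

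**Figure D2:**
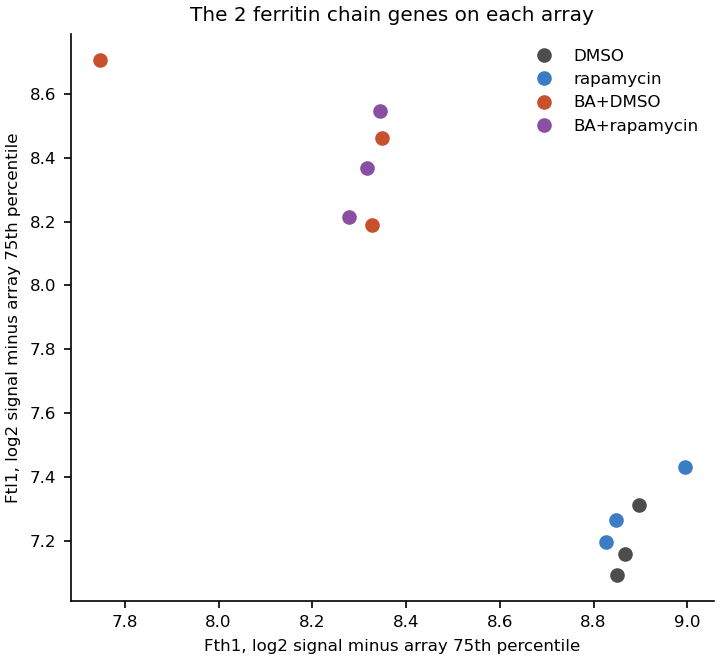
Level of Fth1 (horizontal axis) against that of Ftl1 (vertical axis), both as log2 signal minus the array's 75th percentile, with 1 point per array coloured by group. Challenged arrays lie at the upper left and unchallenged arrays at the lower right, and the challenged array farthest to the left is BA+DMSO replicate 1, at 7.75 for Fth1 and 8.71 for Ftl1.

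For promoters, a RefSeq table on build GRCm38.p6 held 7 of the 10 members, all but Slc40a1, Hmox1 and Slc11a2, with 13 windows of 250 bases that end at an annotated start. The letters TGACNNNGC, a short form of the antioxidant response element bound by Nrf2, known for its ferritin and haem oxygenase targets, were searched on both strands. They were in 0 of the 13 windows and in 10.2% of all 32851 such windows. With so few windows, and sites farther from the start not searched, nothing is read from the 0. One window before each of the 2 ferritin genes is printed because their scaled levels moved in opposite directions, and as no match was found nothing in them is in capitals. Fth1 has 2 windows, of which the downstream one, at chr19:9982396-9982645 on the plus strand, is printed and the one at chr19:9980350-9980599 is not, and the Ftl1 window is at chr7:45459887-45460136 on the minus strand, all in GRCm38.p6.
Fth1 upstream: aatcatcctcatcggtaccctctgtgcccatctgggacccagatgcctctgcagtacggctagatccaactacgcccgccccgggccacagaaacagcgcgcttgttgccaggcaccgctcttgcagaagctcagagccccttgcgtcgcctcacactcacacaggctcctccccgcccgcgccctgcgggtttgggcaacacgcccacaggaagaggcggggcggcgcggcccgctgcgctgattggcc
Ftl1 upstream: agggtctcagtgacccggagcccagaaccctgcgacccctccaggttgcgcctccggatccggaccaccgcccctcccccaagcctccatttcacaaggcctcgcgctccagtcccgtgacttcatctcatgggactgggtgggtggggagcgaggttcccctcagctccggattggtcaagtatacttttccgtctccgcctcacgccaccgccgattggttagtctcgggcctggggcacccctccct

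Hmox1 was measured by probes at chr8:77624207-77624266 and chr8:77620797-77620856 (plus strand). The brighter one read 0.34, 0.14 and 0.08 in DMSO, 0.47, 0.23 and 0.38 in rapamycin, 2.43, 0.74 and 2.14 on BA+DMSO arrays and 0.97, 1.12 and 1.32 on BA+rapamycin arrays. Every challenged array was above every unchallenged one, and the 3 BA+DMSO arrays spread on both sides of the BA+rapamycin arrays. On vehicle the difference was 1.58 (SE 0.35, limma adjusted p = 0.0114), and the second probe gave 1.21 (SE 0.27, limma adjusted p = 0.0122). Under rapamycin the 2 probes gave 0.77 (SE 0.35, limma adjusted p = 0.0954) and 0.68 (SE 0.27, limma adjusted p = 0.0666), which did not pass. Before scaling the brighter probe read 319 to 438 intensity units in rapamycin and 162 to 269 in BA+rapamycin, lower with the challenge. On vehicle it read 235 to 353 in DMSO and 713, 131 and 1085 on the 3 BA+DMSO arrays, so 2 of these 3 were above every DMSO array before scaling. The value of 0.77 passed without BA+DMSO replicate 2 (adjusted p = 0.0019), an array outside this contrast that enters through the shared estimate of spread. It also passed with only the 2 groups in the fit (adjusted p = 0.00467) and, at 0.96, with the restricted 75th percentile (adjusted p = 0.0378), and with brightness as a covariate it was 1.83 (adjusted p = 0.0587). The call on vehicle was lost with only its 2 groups in the fit (limma adjusted p = 0.089). It was also lost with a block for arrays that share a title date and number (limma adjusted p = 0.14). The test of the difference between the 2 responses, the interaction, called no member.

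Slc11a1 was measured by 1 probe (chr1:74432161-74432220, plus strand). It read 0.70, -0.18 and -0.47 in DMSO, 0.26, 0.64 and 0.83 in rapamycin, 1.41, 0.53 and 1.75 on BA+DMSO arrays and 0.99, 0.98 and 0.89 on BA+rapamycin arrays. BA+DMSO replicate 2 lay below DMSO replicate 1, so the groups overlapped, although the difference of 1.21 (SE 0.35, limma adjusted p = 0.0318) passed the test. It no longer passed without DMSO replicate 2 (adjusted p = 0.117) or 3 (0.114) or BA+DMSO replicate 1 (0.100) or 3 (0.0579). Under rapamycin the difference was 0.38 (SE 0.35, limma adjusted p = 0.394). Before scaling the signal was 160 to 455 intensity units in DMSO and 113 to 829 on BA+DMSO arrays, with overlap. It was 309 to 601 in rapamycin and 147 to 218 on BA+rapamycin arrays, lower with the challenge. In the challenge 9 of 11 tested macrophage markers were called higher, among them Cd68 by 2.63 and Emr1, the F4/80 antigen, by 2.40. Markers of proliferation and of endothelium were also called higher, 7 of 7 and 3 of 6 tested, beside 9.65% of all probes. Mki67, well above background on every array, rose by 4.31, while Top2a, Cdk1 and Melk were well above background on 0 DMSO arrays. These last genes did not pass the filter through DMSO, so nothing is read from the count of proliferation markers. Of the 8 listed, 3 to 4 were well above background on DMSO arrays and 6 to 8 on BA+DMSO arrays. The part of macrophages, endothelium and dividing cells in the Hmox1 and Slc11a1 values was not tested.

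Cp was measured by probes at chr3:19889071-19889130 and chr3:19907511-19907570 (plus strand). The brighter probe read 2.48, 2.06 and 1.93 in DMSO, 2.69, 2.91 and 3.13 in rapamycin, 2.97, 2.97 and 2.93 on BA+DMSO arrays and 2.67, 2.75 and 2.67 on BA+rapamycin arrays. DMSO was below the other 3 groups with no overlap. The challenge difference of 0.80 (SE 0.18, limma adjusted p = 0.0125) no longer passed without DMSO replicate 2 (adjusted p = 0.0628) or 3 (0.0565), and the dimmer probe, which the files assign to another Cp transcript, gave 0.27 (SE 0.23, limma adjusted p = 0.423). Under rapamycin the difference was -0.21 (SE 0.18, limma adjusted p = 0.354). Before scaling the brighter probe read 843 to 1562 intensity units in DMSO and 610 to 1873 on BA+DMSO arrays. The geometric means were 1135 and 1058, so the rise on vehicle was seen only after scaling. In rapamycin it read 1665 to 2956 and on BA+rapamycin arrays 504 to 697. Of 8 hepatocyte markers, 3 could be tested, and the summed level of that list was 7.43 to 8.58 in DMSO, 12.4 to 14.2 in rapamycin, 9.71 to 14.1 on BA+DMSO arrays and 7.85 to 9.78 on BA+rapamycin arrays. Ahsg gave 30.5% to 58.2% of that sum, and without it the sum was 4.05 to 5.03, 5.16 to 6.43, 5.45 to 6.06 and 4.10 to 6.79 in the same order. The part of hepatocyte RNA in the Cp values was not tested.

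Tfrc, the transferrin receptor, was measured by 3 probes, of which the one at transcript position 1732 was well above background on no array. The probe at position 4288 (chr16:32632255-32632314, plus strand) read -1.52, -1.56 and -2.12 in DMSO, -2.34, -2.47 and -1.89 in rapamycin, -1.40, -2.36 and 0.09 on BA+DMSO arrays and -2.09, -1.95 and -2.49 on BA+rapamycin arrays. Its groups overlapped, with differences of 0.51 (SE 0.48, limma adjusted p = 0.487) and 0.06 (SE 0.48, limma adjusted p = 0.929), and leaving out 1 array the first ran from -0.15, without BA+DMSO replicate 3, to 1.07, without BA+DMSO replicate 2. On vehicle this probe was called with brightness as a covariate (1.63, adjusted p = 0.0134) and with normexp (0.65, adjusted p = 0.0442), which under rapamycin gave 0.56 (adjusted p = 0.0372). The probe at position 1228 (chr16:32620470-32620529), printed above, read -2.42, -2.19 and -2.99 in DMSO, -3.05, -2.82 and -3.35 in rapamycin, -1.64, -0.95 and -1.11 on BA+DMSO arrays and -0.88, -1.51 and -1.38 on BA+rapamycin arrays. It was higher on all challenged than on all unchallenged arrays, by 1.30 (SE 0.27, limma adjusted p = 0.00901) on vehicle and 1.81 (SE 0.27, limma adjusted p = 0.0011) under rapamycin.

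Before scaling, the signal of this second Tfrc probe was 27.9 to 58.5 intensity units in DMSO, 31.1 to 38.5 in rapamycin, 40.5 to 114 on BA+DMSO arrays and 26.1 to 59.3 on BA+rapamycin arrays, and the group ranges overlapped. Array brightness, by which these signals were divided, was lower on BA+DMSO replicates 1 and 2 and on all BA+rapamycin arrays than on any unchallenged array. On BA+DMSO replicate 3 it was 246, within the unchallenged range, and the signal there was 114. The part of array brightness in the rise of this dim probe was not tested on its own. With brightness as a covariate, 6 of the 9 standing probes were called in the challenge, beside 18.3% of all probes, and 1 under rapamycin, beside 6.42%, and that 1 was the Tfrc probe at position 4288, at 2.04 (adjusted p = 0.0384).

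The 2 probes of Slc11a2 moved in opposite directions. The probe at position 2961 (chr15:100218333-100218392, minus strand) read 0.75, 1.00 and 0.82 in DMSO, 0.65, 0.83 and 0.62 in rapamycin, 0.11, 0.40 and 0.87 on BA+DMSO arrays and 0.42, -0.18 and 0.02 on BA+rapamycin arrays. It was lower on all BA+rapamycin than on all rapamycin arrays, by -0.61 (SE 0.22, limma adjusted p = 0.0459), and on vehicle the difference was -0.40 (SE 0.22, limma adjusted p = 0.23). That call was lost without any 1 of 8 of the 12 arrays, with adjusted p values up to 0.149; these were the DMSO and rapamycin arrays and BA+rapamycin replicates 2 and 3. With brightness as a covariate the difference was -0.11 (adjusted p = 0.87), and with the title date as a random block it was -0.50 (adjusted p = 0.115). The probe at position 253 (chr15:100240516-100240575), printed above, gave 1.53 (SE 0.39, limma adjusted p = 0.0112) under rapamycin and 1.18 (SE 0.39, limma adjusted p = 0.0526) on vehicle. Its signal before scaling was 19.9 to 41.8 intensity units in DMSO, 24.5 to 39.6 in rapamycin, 28.6 to 36.4 on BA+DMSO arrays and 27.9 to 33.7 on BA+rapamycin arrays, while that of the probe at position 2961 was 390 to 533, 404 to 518, 103 to 452 and 66.0 to 147. A direction for the gene therefore depends on the probe.

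**Figure D3:**
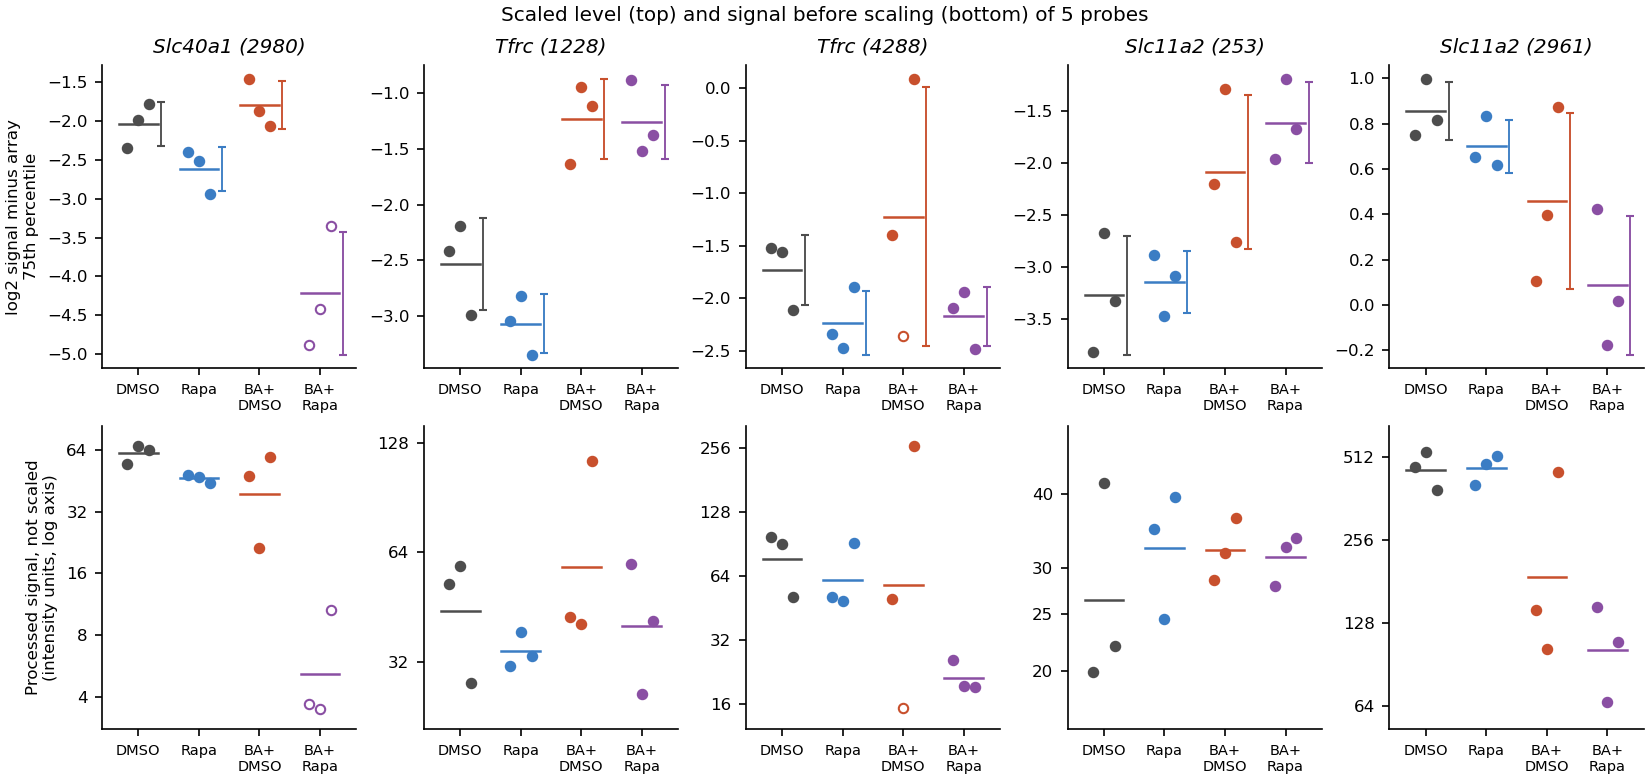
Level after scaling (upper row, log2 signal minus the array's 75th percentile) and processed signal before scaling (lower row, intensity units on a log axis) for the tested probes of Slc40a1, Tfrc and Slc11a2, with the transcript position of each probe. Points are arrays, open where not well above background, lines are means (geometric in the lower row) and bars SD (n = 3). After scaling, Tfrc 1228 is higher on all challenged arrays and Slc11a2 253 is higher on all BA+rapamycin than on all rapamycin arrays, while before scaling these groups overlap, and Slc40a1 is low in BA+rapamycin in both rows.

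Steap3, a ferrireductase of the endosome, was measured by probes at chr1:122124269-122124328 and chr1:122123244-122123303 (minus strand). The brighter one read 0.77, 0.51 and 0.90 in DMSO, 1.02, 1.18 and 0.61 in rapamycin, 1.51, 0.85 and 1.06 on BA+DMSO arrays and 1.66, 0.77 and 1.17 on BA+rapamycin arrays, with overlap between groups. Its differences were 0.41 (SE 0.26, limma adjusted p = 0.288) on vehicle and 0.26 (SE 0.26, limma adjusted p = 0.441) under rapamycin. The other probe rose, by 0.74 (SE 0.20, limma adjusted p = 0.0242) and 0.86 (SE 0.20, limma adjusted p = 0.00738). Its challenged arrays, at 0.42 to 1.26, lay above its unchallenged arrays, at -0.16 to 0.20. Before scaling that probe was lower under rapamycin, at 295 to 305 intensity units without and 116 to 262 with the challenge.

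Cybrd1, a plasma membrane ferrireductase best known from the duodenum, could not be tested. Its brighter probe (chr2:70980706-70980765, plus strand) was well above background on 1 DMSO, 2 rapamycin, 2 BA+DMSO and 0 BA+rapamycin arrays. It read -3.23, -3.81 and -5.86 in DMSO, -3.99, -2.94 and -3.19 in rapamycin, -1.67, -2.95 and -2.45 on BA+DMSO arrays and -4.81, -4.42 and -2.89 on BA+rapamycin arrays. The other probe was well above background on 1 of the 12 arrays.

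Counted by probe, 8 of the 15 tested probes were higher and 1 lower with the challenge on vehicle, beside 9.65% and 10.8% of all probes. Under rapamycin 5 were higher and 3 lower, beside 18.9% and 22.9%, and the 3 include Slc40a1. Both probes passed the test on vehicle for Ftl1 and Hmox1. Under rapamycin both passed for Ftl1 in 1 direction and both passed for Slc11a2 in opposite directions. Of the 6 genes with 2 tested probes, only Ftl1 and Hmox1 had the same call from both in each of the 2 contrasts.

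**Figure D4:**
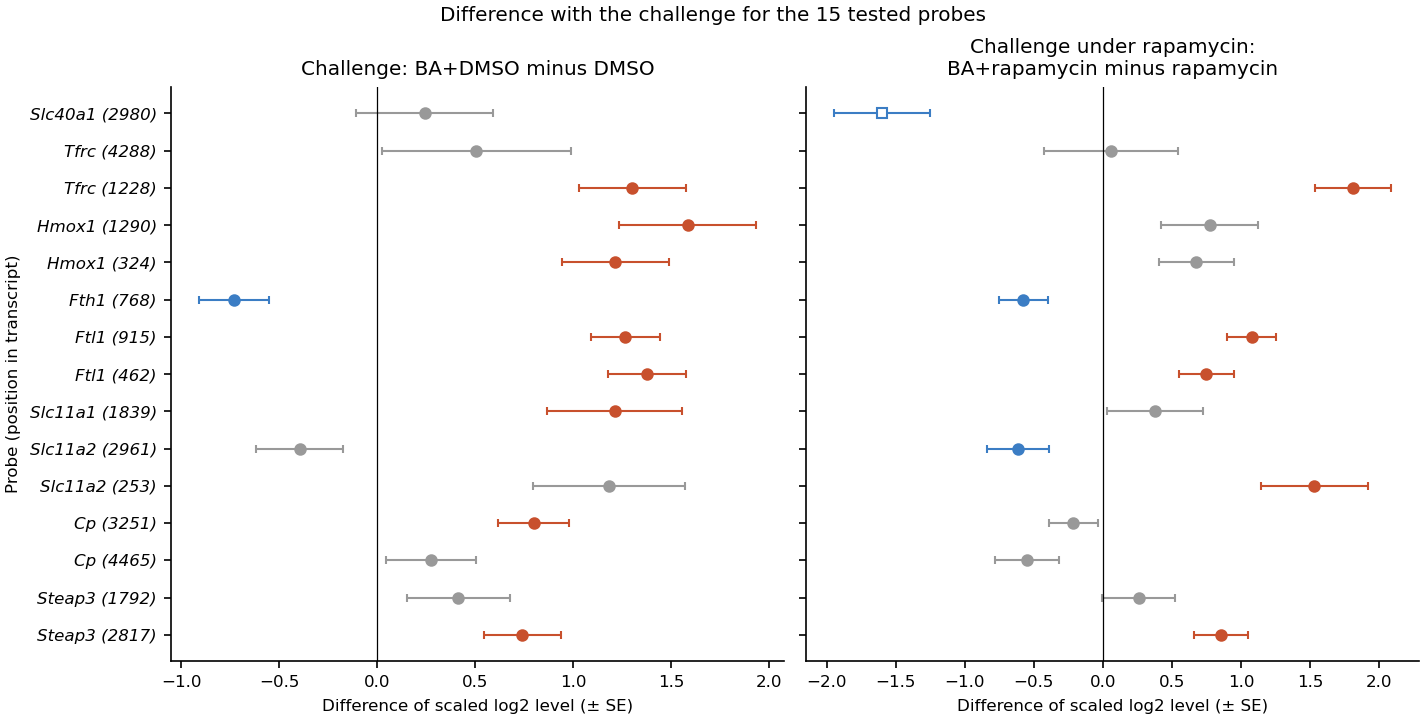
Difference of scaled log2 level with the challenge on vehicle (left) and under rapamycin (right) for the 15 tested probes, with SE as bars and the position in the transcript in brackets. Red and blue mark probes called higher and lower by limma, grey marks probes not called, and the open square marks Slc40a1, which was well above background on no BA+rapamycin array. The Ftl1 probes are red and Fth1 blue in both panels, while the 2 probes of Slc11a2 lie on opposite sides of 0.

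Slc40a1 was measured by 1 probe (chr1:45965255-45965314, minus strand). It read -2.35, -1.98 and -1.78 in DMSO, -2.40, -2.52 and -2.93 in rapamycin, -1.46, -1.87 and -2.06 on BA+DMSO arrays and -4.88, -4.42 and -3.35 on BA+rapamycin arrays. The order of the group means was BA+DMSO at -1.80 ± 0.31, DMSO at -2.04 ± 0.29, rapamycin at -2.62 ± 0.28 and BA+rapamycin at -4.22 ± 0.79 (SD, n = 3). BA+DMSO and DMSO overlapped, and rapamycin lay below DMSO with no overlap but a difference of -0.58 that did not pass the test (SE 0.35, limma adjusted p = 1). The BA+rapamycin readings were the lowest, but none was well above background. The lowest level well above background was -2.28 on BA+rapamycin replicate 2. That limit lies above every rapamycin array and DMSO replicate 1, so separation from these 2 groups is not shown. The probe exceeded background on every array of the first 3 groups and on 0 of the 3 BA+rapamycin arrays, where the value is therefore a bound. With each BA+rapamycin array put at its lowest level well above background, the Slc40a1 mean was 1.86-fold lower than on BA+DMSO arrays. Against rapamycin arrays, where separation is not shown, this gave 1.05-fold. The bound is approximate, as a probe above that level can still fail the flag. Ireb2 did so on BA+rapamycin replicate 1, at -2.86 where the lowest level was -2.95. Before scaling its signal was 54.9 to 67.5 intensity units in DMSO, 44.2 to 48.7 in rapamycin, 21.3 to 59.1 on BA+DMSO arrays and 3.48 to 10.6 on BA+rapamycin arrays. With the challenge on vehicle it differed by 0.24 (SE 0.35, limma adjusted p = 0.657). After normexp background correction with an offset, which compresses dim signals, the fitted difference between BA+rapamycin and rapamycin took the opposite sign and did not pass. As the BA+rapamycin readings were not well above background, no size is given here and nothing is read from that sign.

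The 5 genes whose level followed Slc40a1 most closely over the 12 arrays were Apcdd1, Tmem209, Syt3, Macrod2 and Acyp1, with Pearson correlations of 0.936, 0.930, 0.926, 0.925 and 0.910. The arrays share their groups and scaling, so these values describe likeness of pattern and carry no test. The Slc40a1 readings below background on the BA+rapamycin arrays, on which the gene was chosen, enter them. On those arrays the 5 genes had mean levels of -2.97, -4.05, -3.16, -4.39 and -4.37 in the order above. The lowest level well above background there was -2.95, -2.28 and -2.85 on replicates 1, 2 and 3. Readings near the floor are thus shared, and nothing is read from the correlations.

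Rapamycin alone (rapamycin against DMSO) called 0 of the 9 members by limma, beside 0.0036% of all probes, which is 1 probe. An unadjusted p under 0.05 was reached by 1 member, Cp. Its brighter probe was higher by 0.76 (SE 0.18, limma adjusted p = 0.554) and its dimmer probe by 0.97 (SE 0.23, limma adjusted p = 0.554), with no overlap between the groups in either. Within the first slide the brighter probe differed by 0.54 and between the arrays of both groups that share a date in the title by 1.03. The 9 members had a median of 0.11, beside -0.0052 over all probes.

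In challenged mice, rapamycin (BA+rapamycin against BA+DMSO) gave 1 call among the 9 members, Slc40a1, beside 0.281% of all probes; this contrast chose the gene and nothing is read from the count. By the brightest tested probe of each gene, fitted differences of the others ran from -0.95 for Tfrc to 0.17 for Fth1. Hmox1 differed by -0.64, Slc11a2 by -0.37, Slc11a1 by -0.27, Cp by -0.26, Ftl1 by -0.08 and Steap3 by 0.06. The dimmer tested probes gave 0.47 for Slc11a2, 0.33 for Steap3, 0.15 for Cp, -0.03 for Tfrc, -0.38 for Ftl1 and -0.48 for Hmox1. For Cp this is the opposite sign to its brighter probe, and the groups overlapped by the dimmer one. By the brightest probes, groups overlapped for all of these except Cp, whose BA+rapamycin arrays at 2.67 to 2.75 lay below the BA+DMSO arrays at 2.93 to 2.97. The median of the 9 was -0.27, also with Slc40a1 at its bound, beside -0.0096 over all probes. The interaction called 0 members and 0% of all probes, with 2 members and 1702 probes at an unadjusted p under 0.05. Without BA+DMSO replicate 2, the dimmest of its group, the counts were 3 of 9 members beside 39.9% of all probes in rapamycin under challenge, and 2 of 9 beside 11% in the interaction.

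Another 56 genes of iron handling were listed by role, 53 were on the array under these names and 44 could be tested. In the challenge on vehicle 6 rose and 2 fell, a share close to the background of 20.5%, with a median of -0.011. Hp, the haemoglobin scavenger haptoglobin, had levels of 2.52 ± 0.47 in DMSO and 5.39 ± 0.95 in BA+DMSO (SD, n = 3) and rose by 2.87 (SE 0.77, limma adjusted p = 0.0242). Lcn2, the siderophore-binding lipocalin of neutrophils and inflamed tissue, rose from -1.90 ± 0.38 to 0.69 ± 0.09, by 2.59 (SE 0.29, limma adjusted p = 0.00048). Cd163, the macrophage receptor for haptoglobin with haemoglobin, was among the 6 by its call (limma adjusted p = 0.0157), but was well above background on only 1 of 3 DMSO and 2 of 3 BA+DMSO arrays, so no size is given. Slc48a1, a haem transporter of the lysosome, fell by 0.80 (SE 0.23, limma adjusted p = 0.0319) and Iscu, the scaffold of iron-sulphur clusters, fell by 0.71 (SE 0.22, limma adjusted p = 0.045).

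Under rapamycin the challenge raised 4 of these 44 genes and lowered 10, against a background of 41.7%, with a median of -0.38 beside -0.085 over all probes. Hp rose by 3.82 (SE 0.77, limma adjusted p = 0.00408) and Lcn2 by 2.81 (SE 0.29, limma adjusted p = 0.000174). Slc25a37, the mitochondrial iron importer mitoferrin, rose from 2.29 ± 0.21 in rapamycin to 3.19 ± 0.09 in BA+rapamycin (SD, n = 3; limma adjusted p = 0.0031). Slc48a1 fell by 1.26 (limma adjusted p = 0.00264), Neo1, a co-receptor in the control of hepcidin, by 1.22 (limma adjusted p = 0.0118) and Steap2, a ferrireductase related to Steap3, by 1.22 (limma adjusted p = 0.0399). By role, on vehicle, beside 9.65% of all probes called higher and 10.8% lower, 3 of 8 tested genes of uptake and the transferrin cycle rose and 0 fell, 2 of 8 genes of haem scavenging rose and 1 fell, 1 of 4 of the hepcidin axis rose, and 1 of 9 of mitochondrial iron and iron-sulphur clusters fell. Limma called 0 of 6 genes of iron sensing and ferritin turnover, 0 of 8 of haem synthesis and 0 of 1 other ferroxidase, with 2, 2 and 0 at an unadjusted p under 0.05. Under rapamycin, beside 18.9% called higher and 22.9% lower, 1 rose and 1 fell in each of uptake, haem scavenging and haem synthesis, 1 mitochondrial gene rose and 3 fell, 2 fell in iron sensing and 2 in the hepcidin axis. The ferroxidase was again not called. These lists are small, and nothing is read from a share near the background. Rapamycin alone called 0 of the 44 by limma, with 4 at an unadjusted p under 0.05. Of 6 tested neutrophil markers, 2 were called higher in each challenge contrast. The neutrophil sum, of which Csf3r gave at least 95.0% on every array, was 207 to 258 in DMSO, 203 to 243 in rapamycin, 156 to 602 on BA+DMSO arrays and 504 to 658 on BA+rapamycin arrays. Without Csf3r it was 1.73 to 2.44, 2.63 to 3.32, 4.05 to 7.73 and 3.28 to 6.52 in the same order, with no overlap between DMSO and BA+DMSO. Of 5 tested adipocyte markers, 1 was called higher on vehicle and 0 under rapamycin by limma, with 1 and 2 at an unadjusted p under 0.05. The 1 on vehicle was Ucp1, well above background on 0 DMSO, 1 rapamycin, 3 BA+DMSO and 1 BA+rapamycin arrays. It was tested only through BA+DMSO, where it is high, so nothing is read from its call. Hp and Adipoq, the adipocyte hormone adiponectin, had the same order of arrays within each of the 4 groups. Hp read 5.60, 6.21 and 4.36 in BA+DMSO, where Adipoq read 1.90, 2.98 and 0.92, and in BA+rapamycin Hp read 7.67, 5.05 and 6.19 and Adipoq 3.70, -0.49 and 1.75. The part of macrophage, erythroid, neutrophil and adipocyte RNA in these values was not tested.

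**Figure D5:**
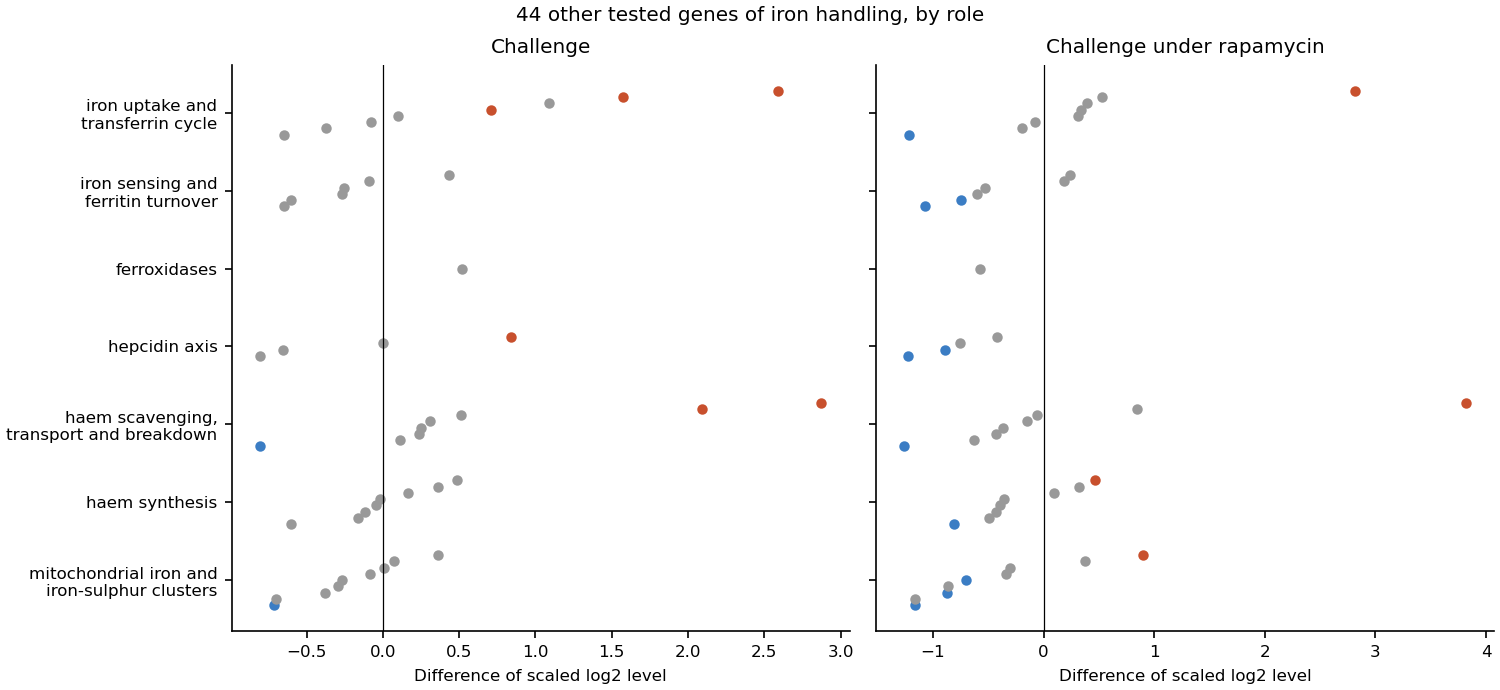
Difference of scaled log2 level with the challenge on vehicle (left) and under rapamycin (right) for the 44 other tested genes of iron handling, grouped by role. Each point is a gene by its brightest tested probe, red where called higher, blue where called lower and grey where not called. The points farthest to the right are Lcn2 in the uptake row and Hp in the haem scavenging row, in both panels.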

How the data were processed

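The members and gene lists were chosen with earlier results of these data known. RNA was labelled with Cy3 and hybridised to 1-colour Agilent mouse arrays. Per the file headers, Feature Extraction 10.7.1.1 read the scans (the submitters' processing notes give 9.5.1.1), probes were placed on mm9, and the deposited processed signal is a background-subtracted linear intensity, not normalized between arrays. The other deposited columns used were raw and background intensity and 0 or 1 flags per spot. The deposited matrix is a quantile-normalized intensity, as its values show. No annotation of mm9 was used, and that the printed probes are coding is background knowledge.

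Here log2 processed signals were averaged per probe without outlier spots and the array's 75th percentile subtracted. Of 55681 probes, 6 lacked a value. A probe was tested if at least 0.5 of its spots were well above background on all 3 arrays of a group. One limma 3.58.1 model in R 4.3.3 gave each group a mean on 12 arrays, with two-sided moderated tests and Benjamini-Hochberg adjustment over all probes. The fit was tested on simulated data. Folds are ratios of group means. Bounds use the lowest signal well above background on each array. Genes other than members were named by rule, as the 3 largest differences among called genes in each direction. Alternatives covered scaling, background, filters, probes, slide, title date, brightness and each array. Figures were drawn with matplotlib 3.10.9.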

Additional observations from a re-analysis of the deposited data

How the results depend on the processing

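Among values of single genes under the alternatives, 1111 kept their side of the threshold or, with no test, moved by less than 1 SD, 55 lost and 14 gained a call, 44 moved further and 2 reversed. A change of sign counts as reversed only where the value was called. Other changes of sign are not among the 2, as for Slc11a2 on vehicle, at -0.40 and by its dimmer probe 1.18. The 2 reversals were in the challenge under rapamycin. Slc40a1 was 0.42 with normexp, and Slc11a2 was 1.53 by its dimmer probe (adjusted p = 0.0112). Slc40a1 was well above background on 0 of the 3 BA+rapamycin arrays, on which it was also chosen. Its value of 0.42 is therefore not a measured difference, and nothing is read from it or from its reversal. Normexp moved the median of all probes from -0.045 to 0.093 on vehicle and from -0.085 to 0.14 under rapamycin. Members called with the challenge on vehicle, 5 in the report beside 20.5% of all probes, were 3 with no filter on dim probes (7.65%), 1 with only the 2 groups compared (4.47%), 0 with the slide as a fixed block (0.054%), 6 with normexp, brightness or the dimmer probes and 0 by the study's rule (unadjusted p under 0.01 and over 4-fold). Leaving out 1 array gave 2 to 5, with 2 without DMSO replicate 2 or 3. Under rapamycin, 4 beside 41.7% became 2 with the slide as a block (28.5%), 1 with brightness as a covariate (6.42%), 5 with normexp (62.4%) or only 2 groups (56.4%), 6 with the dimmer probes and 0 by the study's rule, and leaving out 1 array gave 2 to 5, with 2 without any rapamycin array or BA+rapamycin replicate 2 or 3. For rapamycin under challenge, 1 beside 0.281% became 0 with normexp (0.0396%), with no filter (0.0377%), with only probes above background on all arrays (0.187%) and with only 2 groups (0%). It was 0 to 3 leaving out 1 array, with 0 without DMSO replicate 2, BA+rapamycin replicate 1 or 2 or BA+DMSO replicate 3. Without the dimmest array of each challenged group, chosen after seeing the data, it was 3 of 9 beside 33.3% of all probes and the interaction 1 of 9 beside 5.29%, which was 0 to 2 leaving out 1 array. Of the other iron genes, 8 on vehicle became 5 with no filter (7.65% of all probes) and 3 with only 2 groups (4.47%). They became 0 and 15 with the slide as a fixed and a random block (0.054% and 36.9%). Without the dimmest arrays they were 14 (29.2%), by the study's rule 3, and leaving out 1 array 2 to 12. Under rapamycin, 14 became 27 with normexp (62.4% of all probes), 2 with brightness (6.42%) and 25 with only 2 groups (56.4%). They were 2 by the study's rule and 7 to 25 leaving out 1 array, and rapamycin alone gave 1 by the study's rule. The replicate block of 2 DMSO and rapamycin pairs left 1 member on vehicle (2.62%), 1 under rapamycin (10.1%) and 0 for rapamycin under challenge (0.00719%), and 1 and 4 other iron genes. Deviations correlated at 0.17 and -0.35 in these pairs and at 0.087 in a pair of DMSO and BA+rapamycin arrays, groups that no contrast compares. With means of 3 arrays per group, such deviations cannot show whether the pairs share more than a number and a date. With the title date as a random block (consensus correlation 0.50, each undated array on its own), 5 and 3 members were called. The share of all probes called moved too, and nothing particular to the iron genes is read from these counts. The cause of these shifts was not tested. Probes near background, as Slc40a1 and Cybrd1, are limited by signal.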
